A study of Mus musculus with 45 samples.

Results

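Depletion of NANOG for 6 h was measured by ATACseq in a line of E14 mouse embryonic stem cells (mESC) whose Nanog gene carries a C-terminal FKBP tag, NANOG-FKBP. The small molecule dTAG-13 brings the tagged protein to a ubiquitin ligase, so that it is degraded. The comparison holds 5 of the 45 samples of the series: 3 libraries of cells that received 500 nM dTAG-13 for 6 h, and 2 libraries of untreated cells (NT), which the labels' treatment protocol describes as given DMSO. Every group, NT included, carries the tag and grew without feeders on gelatin in serum-free N-2 and B-27 medium with LIF, a MEK inhibitor (PD0325901) and a GSK3 inhibitor (CHIR99021). The samples were chosen by their labels, not by their values. Neither labels nor methods say how many clones of the line were used or that libraries came from separate cultures. The p-values thus measure a spread between libraries that may be technical. It was estimated over all 27 libraries fitted, of 3 lines, and not over the 5 compared alone. Tagged SOX2-FKBP and OCT4-FKBP cells with the same 6 h treatment and their own NT libraries (2 and 2 in each line) serve for comparison. The methods give E14 for both NANOG-FKBP and SOX2-FKBP, with IB10 mESC named for SOX2-FKBP. OCT4-FKBP was made in another mESC line, V6.5.

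NANOG is a homeodomain transcription factor of the naive pluripotent epiblast. It binds many of the same enhancers as SOX2 and OCT4, and homeodomain proteins recognise short sequences with a TAAT core. In ATACseq the Tn5 transposase inserts into open DNA, so that the number of fragments over a peak (an open chromatin region, OCR) measures accessibility. ATACseq does not read protein, and the counts at the Nanog gene therefore do not check that NANOG was depleted.

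Some of the peaks that lost most accessibility are shown here with their sequence, chosen by motif. The short homeodomain pattern TAATGG was the motif in which lost peaks and all peaks differed most by percentage points. Each line gives 201 bases of the mm10 reference (C57BL/6J, while the cells are of another strain), plus strand, centred on the peak summit and named by the gene with the nearest protein-coding start. The first 6 are those of the 12 largest losses that hold TAATGG within 100 bp of the summit. The rest of the 12 lack it there and are not shown, and it was in 19.3% of all lost peaks. The Tenm4 peak is shown as a loss with 3 copies of it, and the Gata3 peak as a loss that also holds the SOX pattern CATTGT and the POU octamer ATGCAAAT. Capitals mark these 3 patterns on either strand, and the homeodomain pattern reads CCATTA where it lies on the other one.
Ephb1 peak, chr9:102400871-102401071: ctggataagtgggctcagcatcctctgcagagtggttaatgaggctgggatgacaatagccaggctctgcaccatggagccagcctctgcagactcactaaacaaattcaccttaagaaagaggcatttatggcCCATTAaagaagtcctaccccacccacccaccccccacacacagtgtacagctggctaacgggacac
Serp2 peak, chr14:76654800-76655000: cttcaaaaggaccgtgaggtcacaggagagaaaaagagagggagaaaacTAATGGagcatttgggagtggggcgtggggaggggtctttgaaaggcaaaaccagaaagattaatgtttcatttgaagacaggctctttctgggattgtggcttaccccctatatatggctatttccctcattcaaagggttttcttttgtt
Bach2 peak, chr4:32241361-32241561: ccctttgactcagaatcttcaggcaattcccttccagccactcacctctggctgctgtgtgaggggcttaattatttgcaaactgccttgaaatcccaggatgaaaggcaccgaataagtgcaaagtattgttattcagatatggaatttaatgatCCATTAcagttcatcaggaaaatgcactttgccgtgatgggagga
Nlrp4f peak, chr13:65174161-65174361: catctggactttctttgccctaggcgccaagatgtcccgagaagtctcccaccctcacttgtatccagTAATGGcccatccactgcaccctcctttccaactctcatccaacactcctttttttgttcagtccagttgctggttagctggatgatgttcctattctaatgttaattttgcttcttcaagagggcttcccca
Cdh13 peak, chr8:118535868-118536068: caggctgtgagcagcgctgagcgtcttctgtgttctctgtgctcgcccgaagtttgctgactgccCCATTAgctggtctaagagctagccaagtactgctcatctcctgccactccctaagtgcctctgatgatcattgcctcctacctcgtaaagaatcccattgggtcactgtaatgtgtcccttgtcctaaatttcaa
Mtcl1 peak, chr17:66414339-66414539: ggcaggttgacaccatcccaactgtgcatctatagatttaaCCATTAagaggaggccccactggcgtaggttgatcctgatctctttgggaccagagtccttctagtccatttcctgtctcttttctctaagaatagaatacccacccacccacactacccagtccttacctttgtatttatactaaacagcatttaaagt
Tenm4 peak, chr7:96652162-96652362: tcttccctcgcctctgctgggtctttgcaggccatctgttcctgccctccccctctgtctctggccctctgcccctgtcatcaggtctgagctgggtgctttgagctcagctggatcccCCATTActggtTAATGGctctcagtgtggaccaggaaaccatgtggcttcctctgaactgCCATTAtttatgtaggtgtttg
Gata3 peak, chr2:9446073-9446273: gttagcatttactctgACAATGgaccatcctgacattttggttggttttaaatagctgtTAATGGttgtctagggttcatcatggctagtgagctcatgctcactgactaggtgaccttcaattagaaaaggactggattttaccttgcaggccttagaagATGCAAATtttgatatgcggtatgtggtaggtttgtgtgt

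Accessibility was lost at 1797 peaks and gained at 61 after 6 h of dTAG-13, at an adjusted p under 0.05 in edgeR's quasi-likelihood test. These are 1.08% and 0.0367% of the 166430 peaks tested. Lost peaks had a median log2 fold change of -1.62, from -4.19 to -0.67, and gained peaks a median of 1.38, while the median of all peaks tested was 0.02. Of the lost peaks, 1698 fell by at least 1 on the log2 scale, 447 by at least 2 and 40 by at least 3. The median level of the lost peaks was 79.2 normalized counts in NT and 25.1 at 6 h (normalized counts are counts scaled to the mean effective library size of the 27 libraries fitted). At 1793 lost peaks all 3 treated libraries lay below both NT libraries, against 10.7% of all peaks tested. The calls rest on these same libraries, so this describes the lost peaks and is no separate support for them.

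Treated replicate 2 stood apart from the other treated libraries. It held 3272168 counts in peaks, against 12437876 and 4247580 in replicates 1 and 3 and 7102925 and 6035633 in NT. Mitochondrial peaks took 13.18% of its counts and between 2.674% and 4.534% of those of the other 4 libraries. One count is worth 3.41 normalized counts in replicate 2 and 0.721 in replicate 1, so low values are coarser in replicate 2.

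Without treated replicate 2 there were 1546 lost peaks (0.929% of those tested) and 26 gained peaks (0.0156%). In both fits 1410 peaks were lost, which is 78.5% of the losses with all libraries and 91.2% of those without replicate 2. Replicate 2 itself, where it had no part in the call, lay below both NT libraries at 1509 of the 1546 peaks (97.6%), against 37.9% of all peaks tested. At these peaks its median log2 ratio to the NT mean was -1.48, beside -1.67 and -1.56 in the treated replicates that made the call. The NT libraries are the same in that reading and helped to choose the 1546 peaks. That choice favours a treated library below them, so these values are no separate support for the calls. Gains held less well, with 22 of 61 called in both fits. Losses also numbered 708 without treated replicate 1 and 688 without NT replicate 1, and the gains numbered 25 and 40 without treated replicate 1 or 3 and 17 without NT replicate 2, of which 2 were among the 61. Without NT replicate 1 there were 46 gains, of which 6 were among the 61.

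**Figure D1:**
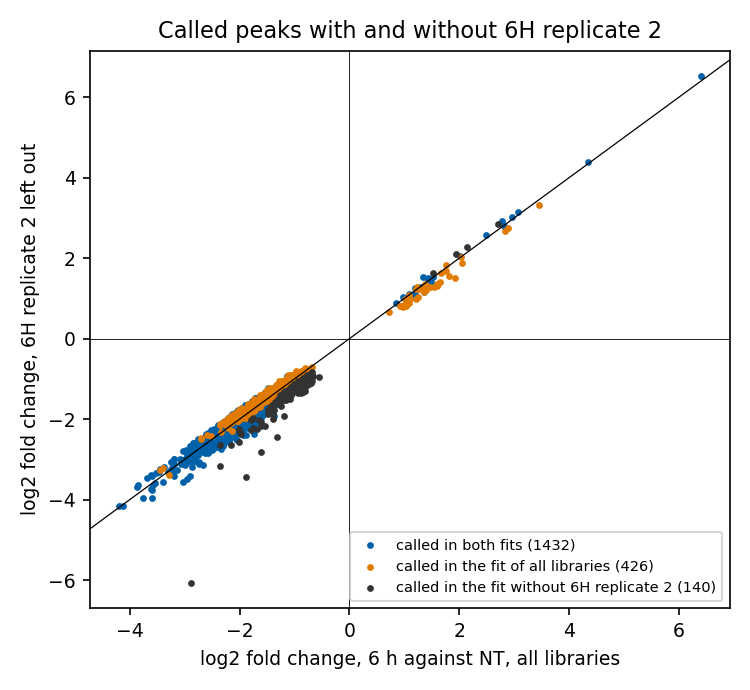
Log2 fold change (6 h against NT) of each called peak with all libraries (x axis) and with treated replicate 2 left out (y axis); colours give the fit that called the peak, and the diagonal marks equal values. Every called peak has the same sign in both fits; the gain at the upper right has 0 counts in both NT libraries, so its fitted value depends on the prior count.

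The largest loss by fold lay between genes 46278 bp upstream of the nearest start of Ephb1, an ephrin-B receptor kinase (chr9:102400788-102401185, mm10). Its normalized counts were 104 and 49 in NT and 5.77, 3.41 and 0 at 6 h, which is -4.19 on the log2 scale (standard error, SE, 0.64, adjusted p = 9.66e-05, and 0.000458 without replicate 2). In normalized counts, though not by fold, the NT libraries differed by more than the treated ones, but no treated library came near the lower NT value. The 3.41 of replicate 2 is 1 count.

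The second, chr2:119730661-119731424, lies in an intron of Rtf1, a transcription elongation factor gene, with the nearest start that of Itpka (11412 bp away), a kinase for inositol trisphosphate. It held 214 and 123 normalized counts in NT and 12.3, 10.2 and 2.27 at 6 h. The log2 fold change was -4.12 (SE 0.34, adjusted p = 6.5e-10, and 1.26e-08 without replicate 2). Only 4.9% of the NT level was left, in each treated library well under either NT library.

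Another strong loss was in Bach2, which encodes a transcriptional repressor of the BTB and bZIP family (chr4:32241195-32241843, in an intron 2511 bp downstream of the nearest start). Counts there were 152 and 223 in NT and 13.7, 23.9 and 13.6 at 6 h, with a log2 fold change of -3.59 (SE 0.32, adjusted p = 3.51e-09, and 1.29e-08 without replicate 2). The groups were far apart, and replicate 2 was the highest of the treated libraries.

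An intron of Iqck, nearest to the start of Knop1, held one of the higher NT levels among these losses (chr7:118887176-118888438). NT libraries had 211 and 272 normalized counts and treated libraries 23.1, 17 and 38.6, a log2 fold change of -3.21 (SE 0.33, adjusted p = 7.65e-08, and 1.87e-06 without replicate 2). An intronic peak of Fat2, an atypical cadherin gene, had 290 and 156 counts in NT and 22.3, 10.2 and 22.7 at 6 h (chr11:55323751-55324357, log2 fold change -3.46, SE 0.47, adjusted p = 1.5e-05, and 0.000135 without replicate 2). At both peaks the lowest NT library was several times above the highest treated one.

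The other 7 of the 12 largest losses had log2 fold changes between -3.68 and -3.19. They lie between genes near Serp2 (chr14:76654708-76655228) and Nlrp4f (chr13:65174097-65174460), between genes 125603 bp upstream of Mycn, a MYC family gene (chr12:13066942-13067839), and in introns of Tox, which encodes an HMG box protein (chr4:6970429-6970953), Rwdd4a (chr8:47543922-47544489), Cdh13, which encodes T-cadherin (chr8:118535764-118536787), and Mtcl1 (chr17:66413931-66414642). All 7 were lost with and without replicate 2, as the choice of named peaks requires. Near Serp2 the counts were 56.1 and 55.3 in NT and 4.32, 0 and 6.82 at 6 h. In Tox they were 76.2 and 77.4 in NT and 8.65, 6.82 and 6.82 at 6 h. At both peaks the NT libraries were close to each other, and accessibility fell below 10 normalized counts in every treated library.

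**Figure D2:**
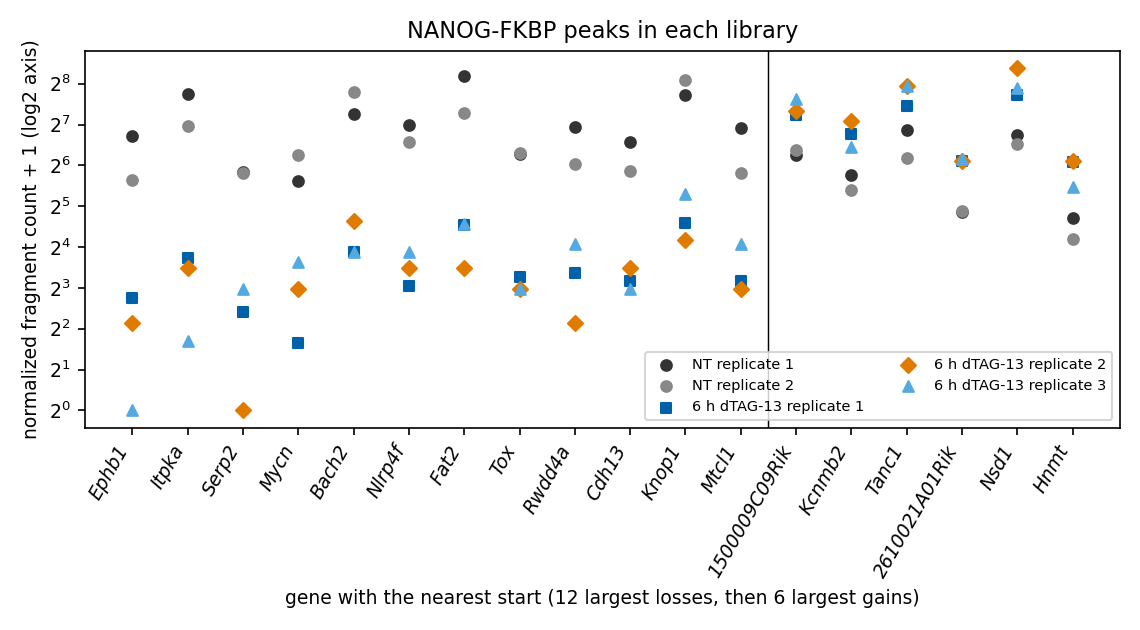
Normalized fragment counts plus 1 (log2 axis) in each NT and 6 h library at the 12 largest losses (left of the line) and the 6 largest gains (right), named by the gene with the nearest start; points are single libraries. At each loss the 3 treated libraries sit below both NT libraries and at each gain above them, as the choice of peaks required, and replicate 2 is neither always the lowest nor the highest treated library.

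Among 744 tested peaks nearest to 20 genes of core and naive pluripotency, 7 were lost (0.941%, against 1.08% of all peaks) and 1 was gained, with a median log2 fold change of 0.02, the same as over all peaks. The share lost was thus near that of all peaks, and nothing is read from it about these genes as a group. All 7 losses were also called without replicate 2, and the gain was not. The losses lay nearest to Klf5, Nr5a2, Pou5f1, Tet2, Zfp281 and, with 2 peaks, Tbx3. At the 19 genes of this list with a tested peak within 500 bp of a start, the promoter peaks had log2 fold changes between -0.26 and 0.50 and none was called.

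The strongest of these by p was in an intron of Tet2, a dioxygenase that oxidises 5-methylcytosine (chr3:133524187-133526483). It held 524 and 501 normalized counts in NT and 138, 130 and 168 at 6 h, a log2 fold change of -1.82 (SE 0.23, adjusted p = 6.52e-06, and 9.49e-05 without replicate 2). The treated libraries were close to each other, at 28.3% of the NT mean. A peak 22733 bp upstream of Klf5, a naive pluripotency factor, fell further (chr14:99274868-99276154). Its counts were 167 and 142 in NT and 28.8, 30.7 and 25 at 6 h, a log2 fold change of -2.45 (SE 0.40, adjusted p = 0.000217, and 0.000859 without replicate 2). The peak 49990 bp downstream of the nearest start of Tbx3, a T-box factor, had 239 and 202 in NT and 99.5, 27.3 and 88.6 at 6 h (chr5:119720558-119721824, log2 fold change -1.48, adjusted p = 0.00134, and 0.00821 without replicate 2). Here replicate 2 was by far the lowest treated library, and the log2 fold change without it was -1.23.

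The gain in this list was at Nanog itself, 8398 bp downstream of its start and between genes (chr6:122715040-122716455). It was named after its values were seen. Normalized counts were 38.8 and 26.9 in NT and 82.9, 153 and 84.1 at 6 h (adjusted p = 0.0445), and the call was lost without replicate 2 (log2 fold change 1.32, adjusted p = 0.197). Replicate 2 was the highest library there. Against the same NT libraries the log2 fold change was 1.47 at 2 h (adjusted p = 0.104) and 1.84 at 24 h (adjusted p = 0.00577). The NT mean was 32.8 in NANOG-FKBP, beside 148 in SOX2-FKBP and 220 in OCT4-FKBP, and this difference was not tested. Over the 16 tested peaks nearest to Nanog the median log2 fold change was 0.44, against 0.02 over all peaks. The promoter peak of Nanog had 221 and 180 in NT and 230, 249 and 166 at 6 h, a log2 fold change of 0.10 (adjusted p = 1), with the groups overlapping. The peak 4745 bp upstream of the start held 638 and 536 in NT and 571, 982 and 845 at 6 h and was not called (adjusted p = 0.801).

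Of 233 peaks near 13 genes of the formative and primed epiblast, 4 were lost (1.72%, against 1.08% of all peaks) and 0 gained. Foxd3, a forkhead factor of the epiblast, had 2 of them. The one 20045 bp upstream of it (chr4:99635683-99637371) held 477 and 427 normalized counts in NT and 136, 136 and 123 at 6 h, a log2 fold change of -1.77 (SE 0.27, adjusted p = 0.000118, and 0.000616 without replicate 2). The treated libraries agreed closely. The others were near Sox3 (chrX:60772128-60773258, log2 fold change -1.41, adjusted p = 0.00157) and in an intron of Fgf5.

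FGF and ERK genes had 7 losses among 275 peaks (2.55%, against 1.08% of all peaks), of which 6 were also called without replicate 2, and 0 gains. They were at Spry4, a feedback inhibitor of ERK signalling, with 4 of its 22 peaks, and at Fgfr1, the FGF receptor, with 3 of its 34. The Spry4 loss with the smallest p lay 27540 bp upstream of the start (chr18:38628460-38629286), with 100 and 67.9 normalized counts in NT and 17.3, 13.6 and 29.5 at 6 h (log2 fold change -2.09, SE 0.31, adjusted p = 7.81e-05, and 0.000483 without replicate 2). No treated library reached the lower NT value.

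Trophectoderm genes had 4 losses among 224 peaks (1.79%, against 1.08% of all peaks), each of them nearest to Gata3, a GATA factor of that lineage, and 0 gains. They lie far from it, between 249646 and 435277 bp downstream of its start, and were all called without replicate 2. The peak at chr2:9534739-9536030 held 139 and 130 normalized counts in NT and 18.7, 27.3 and 27.3 at 6 h, a log2 fold change of -2.57 (SE 0.31, adjusted p = 2.12e-06, and 1.13e-05 without replicate 2). The peak whose sequence is given above, chr2:9445767-9446626, held 182 and 130 in NT and 36, 37.5 and 20.5 at 6 h (log2 fold change -2.28, adjusted p = 8.46e-05), a similar drop.

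In the primitive endoderm list 2 of 204 peaks were lost (0.98%, near the 1.08% of all peaks), both near Foxa2, and 1 was gained, 74314 bp upstream of Gata6, a driver of that lineage. The Gata6 peak had 22.7 and 19 normalized counts in NT and 60.5, 23.9 and 63.6 at 6 h (chr18:10976562-10978213, log2 fold change 1.35, adjusted p = 0.0417, and 0.011 without replicate 2). Replicate 2 was barely above NT there. LIF and BMP response genes had 3 losses among 182 peaks (1.65%), at Lifr, the LIF receptor, with 2, and at Socs3, a feedback inhibitor of LIF signalling. Only 2 of these 3 were called without replicate 2, since the Lifr peak at chr15:6983180-6984097 had an adjusted p of 0.0624 without it. Germ layer genes had 2 among 116 (1.72%, near Mesp1 and Pax6), of which the one near Mesp1 was not called without replicate 2 (adjusted p = 0.0743). The Nodal and TGF-beta genes had 1 among 194 (0.515%, near Smad7), also called without replicate 2. The share of all peaks lost was 1.08%. None of these 3 lists had a gain.

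Housekeeping genes had 0 calls among 49 peaks, too few to read against the 1.08% of all peaks. Genes that mark fibroblast feeder cells had 2 losses among 88 peaks (2.27%), near Col1a1 and Thy1, and neither was called without replicate 2. A promoter peak was tested at 19 of 20 pluripotency genes, with a median of 271 normalized counts in NT. The feeder genes had one at 5 of 10, with a median of 34.9. Summed over each list, the pluripotency promoters held 4688 and 5059 in NT and between 4717 and 5758 at 6 h, and the feeder promoters 228 and 297 in NT and between 218 and 268 at 6 h. Both ranges overlap between the groups. Among the feeder genes, Col1a1, Col3a1, Twist1, Prrx1 and Lum had no tested promoter peak. Of the pluripotency genes Pou5f1 had none, and that of Dppa3 held 2.92 in NT. Promoter peaks were also tested at 11 of 12 primitive endoderm, 9 of 10 trophectoderm and 7 of 10 germ layer genes. Their NT medians were 133, 148 and 162, so an open promoter alone does not identify these cells. Promoter accessibility is not expression.

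The lost peaks had 1529 different genes as the nearest one, and 1319 of these had a single lost peak. Kirrel3, a cell adhesion gene of the immunoglobulin family, Oxr1, an oxidation resistance gene, and Tenm4, a teneurin, had 5 each, of 43, 68 and 136 tested peaks. Their shares were 11.6%, 7.35% and 3.68%, against 1.08% of all peaks. Gata3 and 4930452B06Rik had 4 each, of 40 and 34 (10% and 11.8%), and so did 5 further genes that follow them in alphabetical order. An order by count favours genes with many peaks, and Rcn1 and Spry4, among those 5, each lost 18.2% of 22. Also lost at 6 h in another line were 3 of the losses at Kirrel3 and at Gata3. At Oxr1, Tenm4 and 4930452B06Rik it was 4 each. All 5 losses at Tenm4 were also called without replicate 2, against 3 at Kirrel3 and 2 at Oxr1. The strongest Oxr1 loss, in an intron, held 278 and 240 normalized counts in NT and 67.7, 78.4 and 68.2 at 6 h (chr15:41451724-41452374, log2 fold change -1.88, SE 0.25, adjusted p = 1.12e-05). The Tenm4 peak with 3 copies of TAATGG held 49.5 and 79 in NT and 17.3, 13.6 and 11.4 at 6 h (chr7:96652057-96652527, log2 fold change -2.06, SE 0.39, adjusted p = 0.00196). In neither did the groups overlap. Losses were spread over the chromosomes, from 0.855% of tested peaks on chromosome 6 to 1.33% on chromosome 14.

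Gains were few and modest at peaks of some height. Only 8 peaks met the rule for the largest gains, and the 6 with the largest fold had log2 fold changes between 1.09 and 1.48. A peak between genes near Nsd1, which encodes a histone methyltransferase, rose from 106 and 91.6 normalized counts in NT to 211, 334 and 239 at 6 h (chr13:55205182-55206098, log2 fold change 1.37, SE 0.28, adjusted p = 0.0042, and 0.0332 without replicate 2). A peak between genes near Tanc1 had 116 and 71.1 in NT and 174, 245 and 245 at 6 h (chr2:59598718-59600375, log2 fold change 1.20, adjusted p = 0.00288, and 0.0145 without replicate 2). Both treated groups stood clear of NT, with replicate 2 highest near Nsd1. The other 4 were near Hnmt, 2610021A01Rik, Kcnmb2 and 1500009C09Rik.

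Lost peaks were mostly away from promoters. Only 55 (3.06%) had a summit within 500 bp of an annotated start, against 14.1% of all peaks tested. Introns held 53.2% and sequence between genes 41.5%, against 48.2% and 37.9% of all peaks. Their median distance to a protein-coding start was 29999 bp, against 19125 bp, and their median GC content 46.6%, against 50%. None of the 61 gains lay within 500 bp of a start. Of the losses called with and without replicate 2, 2.98% were within 500 bp of a start.

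Of the 10 motifs searched within 100 bp of the summit, on both strands, the homeodomain pattern TAATGG was in 346 lost peaks (19.3%) and in 6.02% of all peaks tested. Among the losses called with and without replicate 2 its share was 19.4%. Read the other way, 3.46% of the peaks with TAATGG were lost, against 0.929% of those without it. Its share was 32.5% among the 40 losses at or below -3 on the log2 scale (13 peaks) and 15.9% among the 737 above -1.5. Away from promoters it was in 19.4% of lost peaks and 6.42% of all peaks.

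The SOX pattern CATTGT was in 20.6% of lost peaks against 10.4% of all, the POU octamer ATGCAAAT in 5.68% against 2.08%, and the SOX-POU composite (which can overlap the octamer) in 0.723% against 0.297%. The GATA pattern AGATAA was in 10% against 6.36%. The KLF (GGGNGTGG), TEAD (GGAATGT) and AP-1 (TGANTCA) patterns were in 14.6%, 4.79% and 6.46% of lost peaks, each within about 1 percentage point of their shares in all peaks (13.5%, 4.4% and 7.02%). The ESRRB pattern TCAAGGTCA and the CTCF motif were less common in lost peaks, at 1.17% against 1.92% and at 0.334% against 3.25%. Of the 61 gains, 3 held TAATGG. These shares are descriptions of letters in a window, were not tested, and do not show binding. Lost peaks also differ from all peaks in GC content and distance to promoters.

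**Figure D3:**
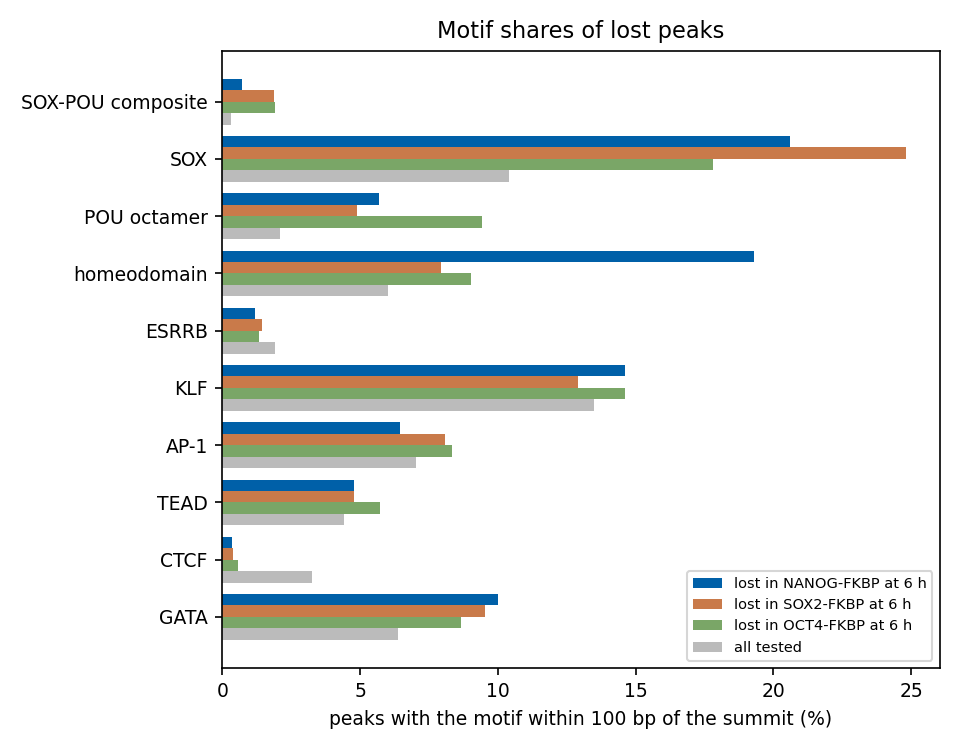
Share of peaks (%, x axis from 0) with each motif (y axis, by name) within 100 bp of the summit, for peaks lost at 6 h in each line and for all peaks tested. The homeodomain bar reaches 19.3% in NANOG-FKBP and 7.93% and 9.03% in SOX2-FKBP and OCT4-FKBP, against 6.02% of all peaks.

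More peaks were lost with the same 6 h treatment in the other lines: 11360 (6.83% of those tested) after SOX2 depletion and 13260 (7.97%) after OCT4 depletion. Gains numbered 1964 (1.18%) and 6859 (4.12%) there, against 61 (0.0367%) after NANOG depletion. Each line has its own NT libraries and the depths differ between lines. Each factor was depleted in its own tagged line, so line and factor cannot be told apart in the values below. OCT4-FKBP cells are also of another mESC line. Of the 1797 peaks lost after NANOG depletion, 920 were lost after SOX2 depletion (51.2% of the NANOG losses and 8.1% of the SOX2 losses) and 875 after OCT4 depletion (48.7% and 6.6%). In all 3 lines 578 were lost. The medians over the NANOG losses were -1.10 in SOX2-FKBP and -0.89 in OCT4-FKBP, against 0.08 and 0.01 over all peaks. The share with TAATGG was 20% among the 580 NANOG losses not called lost in either other line. Among these the SOX pattern was in 18.4%, the POU octamer in 1.55% and the SOX-POU composite in 0.172%. The shares of all peaks were 10.4%, 2.08% and 0.297%, and these differences were not tested.

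The difference between lines was tested at each peak. Among the NANOG losses the change was lower in NANOG-FKBP than in SOX2-FKBP at 196 and higher at 45, and lower than in OCT4-FKBP at 486 and higher at 60. These peaks were chosen by a fall in the same NANOG-FKBP libraries, which favours a lower change there, so the counts and the single peaks below are descriptions. Over all peaks tested it was lower than in SOX2-FKBP at 0.283% and higher at 2.99%, and lower than in OCT4-FKBP at 1.34% and higher at 3.61%. At 89 of the 1797 it was lower than in both. The Iqck peak was one of them: its log2 fold change was 0.17 in SOX2-FKBP and 0.02 in OCT4-FKBP (adjusted p = 0.838 and 0.986), and the differences from NANOG-FKBP were -3.38 and -3.23 (adjusted p = 2.5e-06 and 3.08e-06). The Bach2 peak fell more than in SOX2-FKBP (difference -2.65, adjusted p = 5.73e-05), while the difference from OCT4-FKBP was -1.32 (adjusted p = 0.119). The Tox peak fell by more than in OCT4-FKBP, where its log2 fold change was -0.05 (difference -3.20, adjusted p = 1.57e-06), and the difference from SOX2-FKBP was -1.21 (adjusted p = 0.235). The Nlrp4f and Tet2 peaks were lost in all 3 lines, with log2 fold changes of -4.62 and -1.30 in SOX2-FKBP and -2.92 and -2.23 in OCT4-FKBP, and no difference passed the test.

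**Figure D4:**
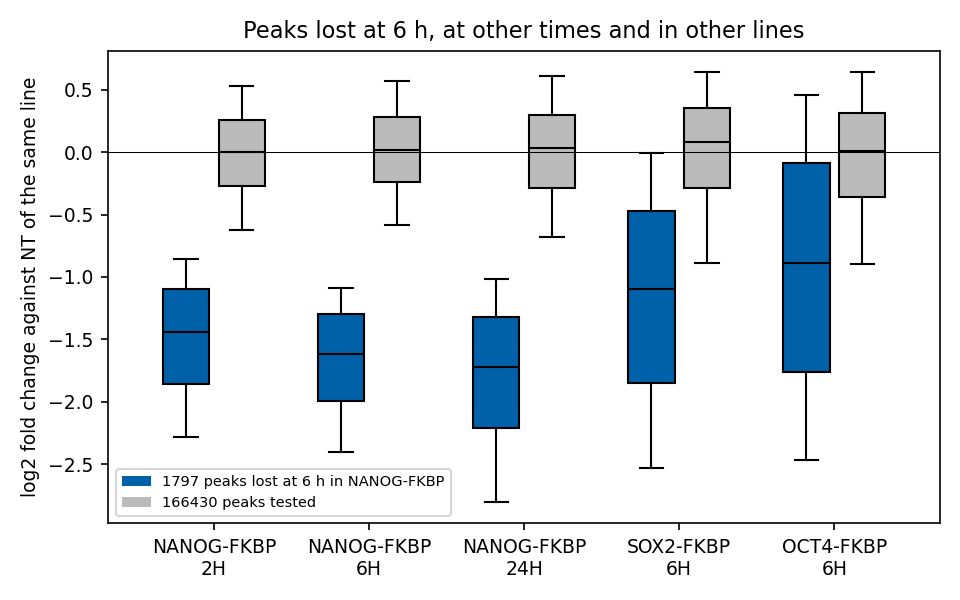
Log2 fold change against NT of the same line (y axis) for the 1797 peaks lost at 6 h in NANOG-FKBP (blue) and for all 166430 peaks tested (grey), by line and time; boxes span the quartiles with the median as a line, and whiskers the 10th to 90th percentile of peaks. The blue medians are -1.44, -1.62 and -1.72 at 2, 6 and 24 h in NANOG-FKBP, which share the NT libraries, and -1.10 and -0.89 in the other lines.

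Other times of the NANOG-FKBP series share the NT libraries with the 6 h comparison, so values are given side by side. Calls were 1561 losses and 27 gains at 2 h (0.938% and 0.0162%), 1797 and 61 at 6 h, and 3745 and 479 at 24 h (2.25% and 0.288%). The median log2 fold change of the 6 h losses was -1.44 at 2 h and -1.72 at 24 h. The Bach2 peak had log2 fold changes of -3.23, -3.59 and -4.73 at the 3 times, the Tet2 peak -1.85, -1.82 and -1.83, and the Klf5 peak -2.30, -2.45 and -3.19. A direct test of 6 h against 2 h, which uses no NT library, called 0 peaks lower and 0 higher in edgeR and 0 in DESeq2. Treated libraries of the same number deviated together at 2 h and 6 h, though the labels give no pairing beyond the number. With a replicate block, edgeR also called 0 lower and 0 higher. Without the block, 3792 peaks (2.28%) had an unadjusted p under 0.05 in edgeR. That share is below the threshold itself, so the unpaired test is cautious and its 0 calls do not show equal levels. Its smallest adjusted p was 1, and the median change from 2 h to 6 h over the lost peaks was -0.16. In the treated replicate 2 libraries mitochondrial peaks took 17.56% of counts at 2 h and 16.99% at 24 h.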

How the data were processed

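The authors mapped paired-end ATACseq reads to mm10 with BWA 0.7.17-r1188, filtered them with SAMtools 1.10 by mapping quality, removed duplicates with Picard 2.12.0 and called peaks with MACS2 on merged libraries. The deposited table holds their raw counts of fragments for 184964 peaks and 31 libraries. Counts are of whole fragments, no shift of their ends is stated, and 14 of the 45 samples have no column and were not analysed here. The deposited peak list also holds a fold enrichment (ratio), a −log10 q-value and a score that were not used.

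In R 4.3.3, edgeR 4.0.16 with TMM scaling was fitted to 27 libraries (NT, 2, 6 and 24 h of the 3 lines, which share 1 estimate of the spread) and tested 166430 peaks, those above 10 counts in over 6 libraries. The quasi-likelihood test (glmQLFTest) was adjusted by Benjamini-Hochberg over all of these, with calls at 0.05. The methods of the study used DESeq2, here an alternative (version 1.42.0), and describe duplicates, while the labels give 3 treated libraries. Standard errors are approximated as the size of the log2 fold change divided by the square root of F. Totals of the 5 libraries compared lie between 3272168 and 12437876 counts and those of the 27 fitted between 1817191 and 17575631, and counting error is part of the model. Log2 ratios of single libraries have a pseudocount of 1.

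Peaks were assigned to the nearest protein-coding transcript start (GENCODE vM21, same build; 0 peaks end past a reference chromosome), in Python 3.11.15. Sequences are from the RefSeq copy of the mm10 assembly. Named peaks are the 12 largest losses and 6 largest gains called with and without treated replicate 2, with no overlap between groups and a group mean, NT or 6 h, of 50 normalized counts or more, up to 3 called peaks per gene list by p, and peaks of the 5 genes with most losses, ties by symbol. Members, lists, motifs and tests were chosen with earlier results of these data known. Treated libraries of the same number deviate together between 2 h and 6 h (0.429, 0.283 and 0.204, pairwise correlations of deviations from group means). The replicate block takes them as pairs in that comparison, though the labels give no pairing beyond the number. Replicate 2 had a high mitochondrial share at both times, and whether its correlation comes from this was not tested.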

Additional observations from a re-analysis of the deposited data

Results flagged for a closer look

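The 6 h change differed between lines in tests of the difference itself (edgeR's quasi-likelihood test, adjusted p under 0.05). It was lower in NANOG-FKBP than in SOX2-FKBP at 471 peaks and higher at 4971. It was lower in NANOG-FKBP than in OCT4-FKBP at 2235 peaks and higher at 6011. Each factor was depleted in its own tagged line, and the OCT4-FKBP cells are also of another mESC line. Line and factor cannot be told apart in either comparison. NT and treated groups of 2 and 3 libraries are too small for the test of outlying samples.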

How the results depend on the processing

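Losses numbered 1797 in the reported fit and between 688 and 1546 when 1 library was left out. They numbered 179 when every library had to reach 10 counts, a filter that tests fewer peaks (33328). It drops peaks that are low in any treated library, as lost peaks often are, so part of this fall was set in advance. Gains numbered 61, between 17 and 46 with 1 library left out, 32 without treated replicate 2 at all times, 30 with total counts, 10 with that filter, 23 with DESeq2, 19 with the 11 NANOG-FKBP libraries and 28 with the 5 compared; the cause was not tested. NT and 6 h libraries of the same number deviated together unevenly (correlation of deviations 0.0857 over 2 pairs). It was 0.194 for number 1 and -0.0247 for number 2, but 0.225 between NT replicate 2 and treated replicate 3. The deviations of 2 NT libraries mirror each other, so these values are not independent. The numbers may thus mispair NT and 6 h samples, and the replicate block, which follows them, is given here only. With it there were 3778 losses and 678 gains, and with GC offsets added 3762 and 726, which hold all 1797 losses. Peaks lower in NANOG-FKBP than in SOX2-FKBP numbered 471, 2098 with the replicate block, 65 with the stricter filter and 339 to 377 without 1 treated library; those lower than in OCT4-FKBP 2235, 6061, 368 and 1843 to 2326. No peak was called between 6 h and 2 h under any alternative run, the replicate block included. Of 924 values of named peaks, 0 reversed and 151 lost their call, 33 of them without NT replicate 1; 22 of the 61 named peaks kept it throughout. A treated replicate of low depth (3272168 counts) limits what can be seen at low peaks.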
